A study of Mus musculus with 31 samples.

Results

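Granzymes, perforin and Fas ligand are the proteins with which killer lymphocytes make a target cell die. The genes described here are Gzma, Gzmb and Gzmc, which encode granzymes A, B and C, Prf1, which encodes perforin, and Fasl, which encodes Fas ligand. They were taken by symbol, as every probe set of the expression table that the probe annotation ties to a single gene symbol and whose symbol is one of these genes. All 5 were measured, among 18193 genes, on 7 of 45101 probe sets, and each gene is represented by its probe set of highest mean level.

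The study treated established AA, read here as alopecia areata, in mice of the strain C3H/HeJ by applying inhibitors of Janus kinases to the skin. Gene expression was measured in whole skin on 31 Affymetrix arrays, and values are log2 intensities, so that a difference of 1 is a doubling. The control arm received PBS, and the other arms received jak1i or jak3i, compounds known here only by these codes and without a stated dose. Treatment time was 0, 6 or 12 weeks in each arm, with 3 samples a group, and 24 weeks in the inhibitor arms, with 2 samples each. A 24-week PBS group is not part of this comparison. The strain and the disease are common to all groups, PBS included, and no unaffected skin was analysed here. Replicates are named as biological in the series record, and it does not say if a mouse was sampled more than a single time.

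Cytotoxic T cells and natural killer (NK) cells store perforin and granzymes in granules and release them at the contact with a target. Perforin opens the target's membrane, granzymes are proteases that enter and start its death, and Fas ligand acts apart from the granules by binding the death receptor Fas on the target's surface. In alopecia areata, killer lymphocytes gather around the hair follicle. Janus kinases relay the signals of cytokines that sustain such cells, and they act through STAT transcription factors.

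The arrays carried skin throughout. The mean level of 6 keratinocyte and dermal genes lay between 12.44 and 13.47 on every array, and the T cell genes Cd3d and Cd3e were measured at 6.60 to 8.77 and 6.83 to 7.98. PBS at 12 weeks stood apart by its skeletal muscle genes, a list of 6 genes whose mean level was 5.72 to 9.14 there and 11.10 to 13.60 on all arrays of the other groups. For the members, the difference of an inhibitor arm from PBS at 12 weeks is therefore followed by the value against PBS at 6 weeks where a call differs. For the genes of the lists, the 12-week inhibitor arrays were not set against PBS at 6 weeks. The part of the muscle difference in the results was not tested.

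The 5 promoters are shown because all of the genes were lower than PBS under jak3i in what follows. Each sequence is the 250 bases before the start of the gene in RefSeq's GRCm38.p6, written 5′ to 3′ on the strand of the gene, and the capitals mark matches to the motifs searched.
Gzma, chr13:113100982-113101231, minus strand: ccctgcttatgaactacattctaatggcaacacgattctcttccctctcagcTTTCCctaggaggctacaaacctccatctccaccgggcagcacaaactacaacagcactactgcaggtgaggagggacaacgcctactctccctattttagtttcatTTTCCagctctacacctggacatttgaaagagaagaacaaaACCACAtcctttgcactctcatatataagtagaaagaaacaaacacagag
Gzmb, chr14:56262335-56262584, minus strand: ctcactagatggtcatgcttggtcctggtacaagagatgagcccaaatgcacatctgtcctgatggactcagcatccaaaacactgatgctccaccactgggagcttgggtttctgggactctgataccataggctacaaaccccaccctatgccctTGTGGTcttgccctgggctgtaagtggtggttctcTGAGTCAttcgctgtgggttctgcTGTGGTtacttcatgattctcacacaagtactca
Gzmc, chr14:56234658-56234907, minus strand: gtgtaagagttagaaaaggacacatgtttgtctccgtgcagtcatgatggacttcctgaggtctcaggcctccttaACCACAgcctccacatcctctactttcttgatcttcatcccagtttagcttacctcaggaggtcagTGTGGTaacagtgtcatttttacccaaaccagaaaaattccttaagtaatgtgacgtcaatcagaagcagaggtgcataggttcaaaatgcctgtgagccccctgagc
Prf1, chr10:61297586-61297835, plus strand: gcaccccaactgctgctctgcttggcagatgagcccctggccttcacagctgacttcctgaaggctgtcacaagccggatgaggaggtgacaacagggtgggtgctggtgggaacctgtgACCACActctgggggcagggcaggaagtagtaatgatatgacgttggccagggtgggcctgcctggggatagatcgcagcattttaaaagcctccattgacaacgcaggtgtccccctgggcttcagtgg
Fasl, chr1:161788496-161788745, minus strand: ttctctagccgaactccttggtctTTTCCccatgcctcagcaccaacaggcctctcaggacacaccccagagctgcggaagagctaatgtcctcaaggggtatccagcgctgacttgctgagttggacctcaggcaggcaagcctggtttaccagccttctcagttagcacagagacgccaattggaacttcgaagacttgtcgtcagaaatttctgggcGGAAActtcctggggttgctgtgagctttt

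Motifs of 6 kinds of factor were searched on both strands, and the shares are those of 32851 promoters of the same length. The core TGTGGT, which Runx factors bind, was found in 4 of the 5 promoters and in 14% of all promoters. Gzma and Prf1 hold 1 copy each, and Gzmb and Gzmc hold 2 copies each. The Gzmb copies start 93 and 34 bases before the gene, and between them lies TGAGTCA, a match to the AP-1 motif TGANTCA, 58 bases before the start. That motif was in 6.75% of all promoters and in no other member. The NFAT core GGAAA, present in 55.6% of all promoters, was matched 2 times each in Gzma and Fasl. No member's 250 bases hold TTCNNNGAA, the STAT motif (7.02% of all promoters), GGTGTGA, the T-box motif (3.33%), or TATAAA, searched as the TATA box (12.4%). Other forms of the TATA box were not searched, such as the tatataag near the end of the Gzma sequence. The matches found overlap no other motif of the search and describe letters, not binding.

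Gzma encodes a tryptase of the granules. Among the members it had the largest log2 difference from PBS in both arms at 6 and at 12 weeks. In PBS it read 10.88, 11.71 and 11.80 at 0 weeks, 10.28, 10.40 and 9.63 at 6 weeks, and 11.03, 9.49 and 11.53 at 12 weeks. Under jak1i it went from 11.98, 11.35 and 9.79 at 0 weeks to 5.20, 5.82 and 5.20 at 6 weeks and 5.60, 7.39 and 5.38 at 12 weeks. Under jak3i it went from 10.11, 10.33 and 9.63 to 4.85, 5.10 and 5.40 and then to 4.78, 5.05 and 5.82. All 12 arrays of 6 or 12 weeks of an inhibitor (4.78 to 7.39) lay below all 15 arrays without an inhibitor (9.49 to 11.98). No share of all genes with this separation is given, for Gzma or for Gzmb and Fasl below. The difference from PBS at 6 weeks was −4.70 for jak1i (95% interval −6.17 to −3.22), a level 25.9-fold lower, with an adjusted p = 0.00333 in limma. For jak3i it was −4.98, or 31.6-fold lower (adjusted p = 0.00264). At 12 weeks the differences were −4.57 for jak1i (23.7-fold lower, adjusted p = 6.2e-04) and −5.47 for jak3i (44.3-fold lower, adjusted p = 9.0e-05). All of these have a standard error of 0.71, and p-values are adjusted over the 18193 genes of each comparison. Against the arm's own 0 weeks the differences were −5.63 at 6 weeks and −4.92 at 12 weeks in jak1i (adjusted p = 1.8e-04 and 7.5e-04), and −4.91 and −4.81 in jak3i (adjusted p = 0.00144 and 0.00459). Without jak3i at 0 weeks replicate 2 the last of these was −4.65 with an adjusted p = 0.0588.

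Gzmb, the granzyme best known for starting apoptosis in targets, had nearly the same course. PBS gave 9.74, 10.29 and 10.36 at 0 weeks, 8.89, 9.57 and 10.22 at 6 weeks, and 9.75, 8.55 and 10.77 at 12 weeks. Under jak1i the 0-week values of 10.71, 10.25 and 10.59 were followed by 4.99, 4.75 and 4.91 at 6 weeks and 4.76, 6.18 and 4.91 at 12 weeks. Under jak3i the values were 10.27, 10.07 and 8.77, then 4.72, 4.76 and 4.73, then 5.12, 4.99 and 6.90. Again all 12 inhibitor arrays of 6 and 12 weeks (4.72 to 6.90) were below all 15 others (8.55 to 10.77), and the 3 arrays of jak3i at 6 weeks agreed within an SD of 0.02. Against PBS the level was lower by 25.6-fold in jak1i at 6 weeks (log2 difference −4.68, standard error 0.73, adjusted p = 0.00409 in limma) and by 21.3-fold at 12 weeks (−4.41, adjusted p = 0.00107). For jak3i it was lower by 28.3-fold (−4.82, adjusted p = 0.00352) and 16.3-fold (−4.02, adjusted p = 0.00193). Against its own start Gzmb fell, with differences of −5.64 and −5.24 in jak1i (adjusted p = 2.0e-04 and 7.5e-04) and −4.97 and −4.03 in jak3i (adjusted p = 0.00149 and 0.0141). The last call was lost without jak3i at 0 weeks replicate 2 (−3.85, adjusted p = 0.114), jak3i at 12 weeks replicate 1 (−3.76, adjusted p = 0.0746) or its replicate 2 (−3.69, adjusted p = 0.0592). On this scale the array medians lay between 6.05 and 6.24, so both granzymes were far above the middle of the array without an inhibitor. At 6 weeks of an inhibitor every array was below it, and at 12 weeks Gzma reached 7.39 in jak1i replicate 2 and Gzmb 6.90 in jak3i replicate 3. Array folds can be understated at dim levels.

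**Figure D1:**
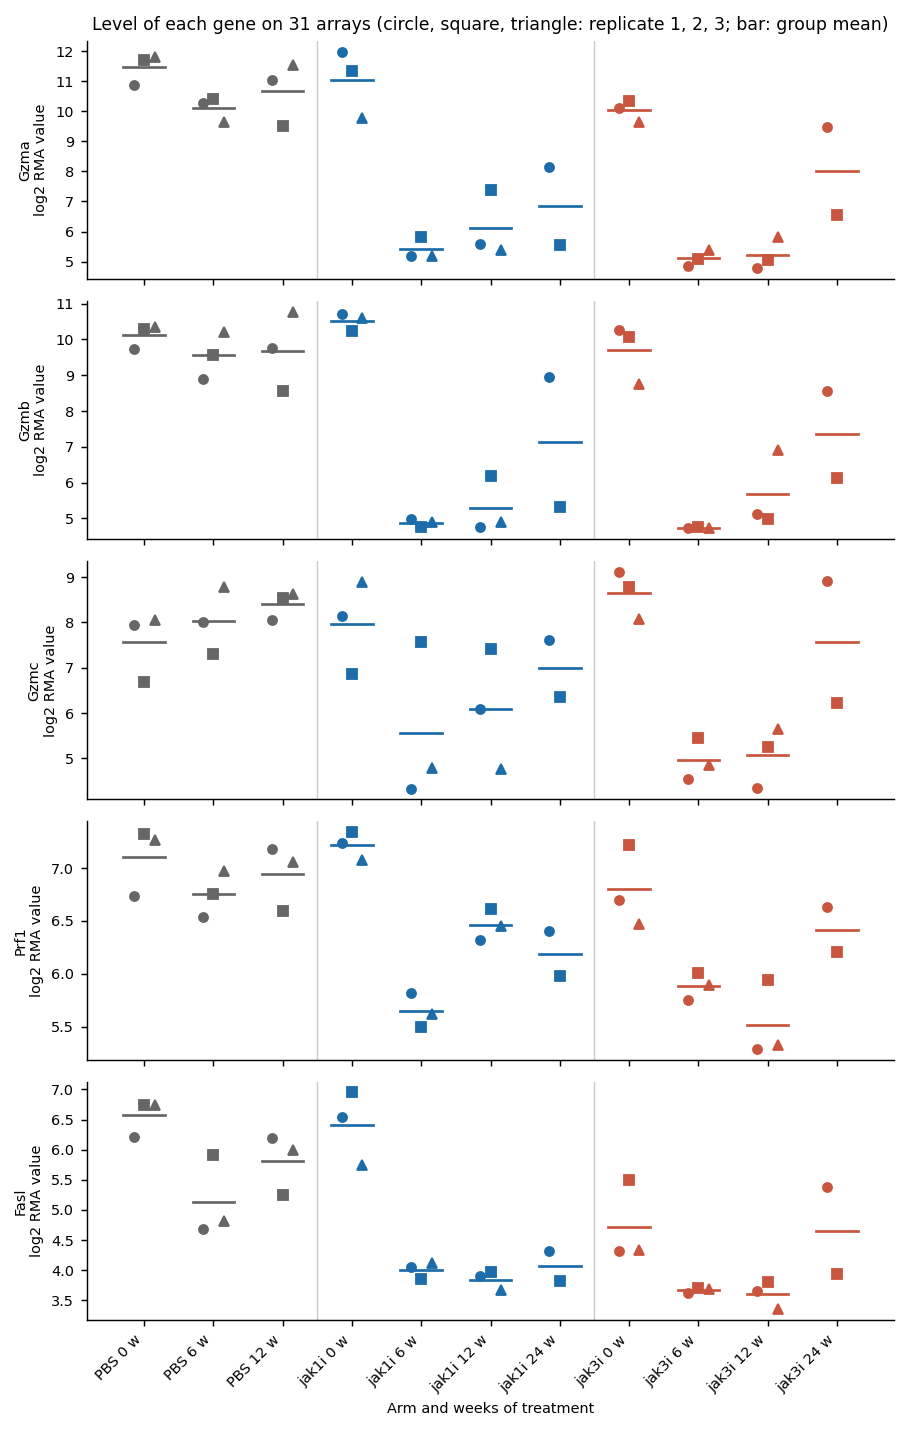
Each panel plots the log2 level of a gene on every array against arm and week of treatment, with 1 point per array. Gzma and Gzmb show no overlap between the arrays of 6 and 12 weeks of an inhibitor and the arrays without an inhibitor. At 24 weeks replicate 2 of each arm lies within the lower of these ranges for both genes. Replicate 1 of each arm lies within the higher range for Gzmb and between the ranges for Gzma.

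Gzmc, a granzyme of strongly stimulated killer cells, had the largest SD of the members in jak1i at 6 and at 12 weeks. PBS read 7.95, 6.68 and 8.05 at 0 weeks, 8.02, 7.30 and 8.78 at 6 weeks, and 8.06, 8.53 and 8.63 at 12 weeks. In jak1i the values were 8.14, 6.87 and 8.89 at 0 weeks, 4.33, 7.57 and 4.79 at 6 weeks, and 6.10, 7.40 and 4.76 at 12 weeks. Replicate 2 was thus within the range of PBS at 6 weeks, and the highest of its group at 12 weeks, when it was below all PBS arrays. In jak3i Gzmc went from 9.11, 8.78 and 8.07 to 4.54, 5.46 and 4.86 at 6 weeks and 4.34, 5.25 and 5.65 at 12 weeks, with no overlap with PBS. The jak3i difference from PBS was −3.08 at 6 weeks (8.43-fold lower, standard error 0.78, adjusted p = 0.0428 in limma) and −3.33 at 12 weeks (10.04-fold lower, adjusted p = 0.00883). For jak1i the differences were −2.47 (95% interval −4.08 to −0.85, adjusted p = 0.118) and −2.32 (−3.93 to −0.70, adjusted p = 0.0512). Without jak1i at 6 weeks replicate 2 the former was −3.47 (adjusted p = 0.0243), and without jak1i at 12 weeks replicate 2 the latter was −2.97 (adjusted p = 0.0361). The jak3i call at 6 weeks was lost without any 1 of its 6 arrays, at differences of −3.44 to −2.70 and adjusted p-values of 0.0502 to 0.17, and that at 12 weeks without jak3i at 12 weeks replicate 1 (−2.96, adjusted p = 0.0518). Against its own start Gzmc fell in jak3i, at −3.70 by 6 weeks (adjusted p = 0.0122) and −3.58 by 12 weeks (adjusted p = 0.0208), and in jak1i at 6 weeks (−2.41, adjusted p = 0.046) with overlapping groups, while at 12 weeks it stood at −1.88 (adjusted p = 0.0982). Each of those 3 calls was lost without single arrays. In jak3i these were replicates 1 and 2 of 0 weeks (adjusted p of up to 0.0797 at 6 weeks and 0.122 at 12 weeks) and, at 12 weeks, also its replicates 1 and 2 of 12 weeks (0.0785 and 0.0613). In jak1i they were replicates 1 and 3 of 0 weeks and of 6 weeks, with adjusted p-values of 0.12 to 0.238.

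Prf1 encodes the pore that lets granzymes in. It changed in the same direction as the granzymes and by far less. PBS gave 6.74, 7.32 and 7.26 at 0 weeks, 6.54, 6.76 and 6.98 at 6 weeks, and 7.18, 6.60 and 7.06 at 12 weeks. In jak1i it read 7.24, 7.34 and 7.07, then 5.82, 5.50 and 5.62 at 6 weeks, then 6.32, 6.62 and 6.45 at 12 weeks, when its highest array reached the range of PBS. In jak3i it read 6.70, 7.22 and 6.47, then 5.76, 6.00 and 5.89, then 5.29, 5.94 and 5.33, below every PBS array at both times. At 6 weeks Prf1 was 2.16-fold lower than PBS in jak1i (log2 difference −1.11, standard error 0.21, adjusted p = 0.0103 in limma) and 1.83-fold lower in jak3i (adjusted p = 0.0305). At 12 weeks it was 2.68-fold lower in jak3i (−1.42, adjusted p = 2.4e-04), whereas jak1i stood at −0.48 (95% interval −0.91 to −0.05, adjusted p = 0.123). Without PBS at 12 weeks replicate 2 that last value was −0.65 (adjusted p = 0.0494). The 6-week calls were lost without single arrays. For jak1i these were jak1i at 6 weeks replicate 1 (−1.20, adjusted p = 0.052) and PBS at 6 weeks replicate 2 (−1.11, adjusted p = 0.059) or replicate 3 (adjusted p = 0.0875). For jak3i they were its replicates 2 and 3 at 6 weeks (adjusted p = 0.0582 and 0.0759) and the same PBS replicates (adjusted p = 0.122 and 0.149), at differences of −0.94 to −0.77. Relative to its own start Prf1 fell, with differences of −1.57 and −0.76 in jak1i at 6 and 12 weeks (adjusted p = 2.1e-04 and 0.0179) and −0.91 and −1.28 in jak3i (adjusted p = 0.0201 and 0.00678). The jak1i call at 12 weeks was lost without replicate 1 or 2 of 0 weeks or replicate 1 or 3 of 12 weeks (adjusted p = 0.0506 to 0.0803). The jak3i calls were lost without replicate 2 of 0 weeks (adjusted p = 0.194 at 6 weeks and 0.098 at 12 weeks), replicate 3 of 6 weeks (0.0537) or replicate 1 of 12 weeks (0.0568). The second Prf1 probe set stayed between 4.86 and 5.42 on all arrays and followed the first with r = 0.168, so the probe sets of this gene did not give the same picture.

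Fasl was measured at 6.22, 6.74 and 6.75 in PBS at 0 weeks, 4.68, 5.92 and 4.82 at 6 weeks, and 6.19, 5.24 and 5.99 at 12 weeks. In jak1i it went from 6.54, 6.95 and 5.75 to 4.05, 3.86 and 4.12 at 6 weeks and 3.90, 3.97 and 3.67 at 12 weeks. In jak3i it began at 4.32, 5.50 and 4.33, and stood at 3.62, 3.71 and 3.69 at 6 weeks and 3.66, 3.81 and 3.35 at 12 weeks. The jak3i arm thus started below all PBS and jak1i arrays of 0 weeks, and all 12 inhibitor arrays of 6 and 12 weeks (3.35 to 4.12) were below all 15 without an inhibitor (4.32 to 6.95). Against PBS at 12 weeks Fasl was 3.9-fold lower in jak1i (log2 difference −1.97, standard error 0.37, adjusted p = 0.003 in limma) and 4.6-fold lower in jak3i (−2.20, adjusted p = 0.00108). With PBS at 6 weeks as the control, the jak1i value was −1.29 (adjusted p = 0.112). At 6 weeks it was 2.76-fold lower in jak3i (−1.46, adjusted p = 0.0439), a call lost without jak3i at 6 weeks replicate 2 or 3 (adjusted p = 0.105 and 0.106) or PBS at 6 weeks replicate 2 or 3 (adjusted p = 0.29 and 0.0846), while jak1i stood at −1.13 (95% interval −1.90 to −0.35, adjusted p = 0.134) without overlap. From its own start Fasl fell in jak1i, at −2.41 by 6 weeks and −2.57 by 12 weeks (adjusted p = 7.8e-04 and 7.5e-04). In jak3i the differences were −1.04 (adjusted p = 0.105) and −1.11 (adjusted p = 0.0572), with every array of 6 and 12 weeks below every array of 0 weeks, a separation whose share of all genes is not given. Without jak3i at 0 weeks replicate 3 the second of these was −1.30 (adjusted p = 0.0495). The other Fasl probe set spanned 3.96 to 5.92 and followed the first with r = 0.942.

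The count of members lower than PBS at an adjusted p under 0.05 was 3 of 5 for jak1i at 6 weeks (Gzma, Gzmb and Prf1), where 1.22% of all genes were lower, and 3 of 5 at 12 weeks (Gzma, Gzmb and Fasl), where 6.51% were. For jak3i it was 5 of 5 at both times, against 1.5% and 7.28% of all genes. No member was called higher in either arm, where 0.143% and 6.85% of all genes were higher in jak1i and 0.445% and 10% in jak3i. Groups without overlap, with all inhibitor arrays lower, were found for 4 members at each time in jak1i (8.79% and 18.9% of all genes) and for 5 in jak3i (7.93% and 19.7%). The median difference of the members was −2.47 and −2.32 in jak1i and −3.08 and −3.33 in jak3i, where the median over all genes lay between −0.04 and 0.04. Both inhibitors were set against the same PBS arrays, so their differences are not independent. The jak3i count at 6 weeks was 2 without jak3i replicate 2 or 3, or PBS replicate 2 or 3, of that week. In each of these comparisons fewer lymphocytes in the skin and less transcript per cell cannot be told apart.

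**Figure D2:**
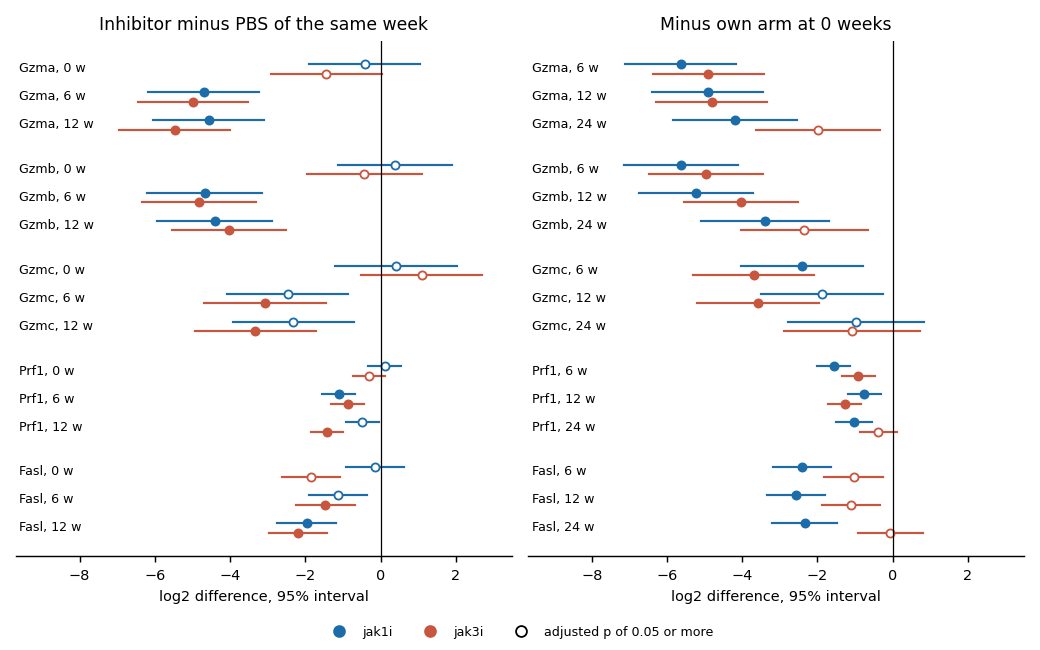
For each gene and week the log2 difference from PBS of the same week (left) and from the arm's own 0 weeks (right) is drawn for jak1i in blue and jak3i in red with its 95% interval, and filled markers have an adjusted p under 0.05 in limma. In the left panel the intervals of Gzma and Gzmb lie far below 0 at 6 and 12 weeks, those of Prf1 and Fasl are nearer to it, and at 0 weeks only that of Fasl in jak3i lies below 0.

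Compared with their own arm at 0 weeks, 5 members were lower in jak1i at 6 weeks (6.43% of all genes) and 4 at 12 weeks (6.5%). In jak3i the counts were 4 at 6 weeks (2.05%) and 4 at 12 weeks (2.85%). The jak3i counts rest on single arrays. At 6 weeks 2 members were called without jak3i at 0 weeks replicate 2, and at 12 weeks there were 0 without that array, 1 without jak3i at 12 weeks replicate 1 and 2 without its replicate 2.

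Before treatment no member passed the test between an inhibitor arm and PBS, and Fasl in jak3i came nearest. At 0 weeks the jak1i differences from PBS ran from −0.42 for Gzma to 0.41 for Gzmc, with adjusted p = 0.999 throughout. In jak3i Fasl was −1.85 from PBS (95% interval −2.63 to −1.08, unadjusted p = 5.5e-05, adjusted p = 0.391) and Gzma −1.44 (−2.91 to 0.04, adjusted p = 0.669), each with all 3 arrays below PBS, as for 6.55% of all genes. Gzmc lay the other way, at 1.09 (−0.52 to 2.71, adjusted p = 0.828), with all 3 arrays above PBS, as for 8.78% of all genes. In limma 0 of 5 members and 0% of all genes were called lower at 0 weeks in either arm, and at an unadjusted p under 0.05 the members lower were 0 in jak1i (1.79% of all genes) and 1 in jak3i (3.91%).

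Within PBS no member was called at 6 weeks (0% of all genes lower) or 12 weeks (0.885%) against 0 weeks in limma. Fasl came nearest, at −1.43 by 6 weeks (unadjusted p = 8.8e-04, adjusted p = 0.278), and Gzma was at −1.36 (adjusted p = 0.546), each with all 6-week arrays below all 0-week arrays. The share of all genes without overlap in this comparison is not given. Fasl was the only member under an unadjusted p of 0.05 at 6 weeks, with 5.07% of all genes lower at that p, and at 12 weeks there were 0, with 5.79%. The 12-week values were −0.77 for Gzma, −0.44 for Gzmb, 0.85 for Gzmc, −0.16 for Prf1 and −0.76 for Fasl, with adjusted p-values of 0.318 to 0.831.

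Setting each arm's change against that of PBS removes a difference that was there at the start. From 0 to 12 weeks the change in jak1i went below that of PBS by −4.14 for Gzma (standard error 1.01, adjusted p = 0.0199 in limma), −4.80 for Gzmb (1.04, adjusted p = 0.014) and −1.81 for Fasl (0.53, adjusted p = 0.0412), or 3 members against 3.86% of all genes. Without jak1i at 12 weeks replicate 3, PBS at 0 weeks replicate 1 or PBS at 12 weeks replicate 3 only 1 of them passed. The Fasl call was lost without any 1 array of these groups (adjusted p = 0.0578 to 0.109) except jak1i at 0 weeks replicate 3 and PBS at 12 weeks replicate 2. In jak3i the values were −4.03 for Gzma (adjusted p = 0.0316), −3.59 for Gzmb (0.0494), −4.42 for Gzmc (0.0316) and −1.12 for Prf1 (0.0384), or 4 members against 1.96% of all genes. Fasl, low at the start in this arm, stood at −0.35 (adjusted p = 0.727). Its jak3i levels at 12 weeks were dim, at 3.35 to 3.81, so its fall in this arm can be understated. These 4 calls are close to the threshold, and 0 remained without jak3i at 0 weeks replicate 1 or 2, jak3i at 12 weeks replicate 1, PBS at 0 weeks replicate 1 or 2, or PBS at 12 weeks replicate 1 or 3, and 2 without jak3i at 12 weeks replicate 2 or PBS at 0 weeks replicate 3. From 0 to 6 weeks limma called 0 members in either arm (0.11% and 0.0055% of all genes lower), with 4 in jak1i and 3 in jak3i under an unadjusted p of 0.05, where 9.27% and 6.87% of all genes were lower. The Gzmb values were then −5.06 (adjusted p = 0.0512) and −4.39 (adjusted p = 0.116).

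At 24 weeks the 2 arrays of each inhibitor arm disagreed. In jak1i replicate 1 read 8.13 for Gzma, 8.94 for Gzmb and 7.62 for Gzmc, and replicate 2 read 5.55, 5.32 and 6.35. In jak3i replicate 1 read 9.49, 8.57 and 8.91, and replicate 2 read 6.56, 6.14 and 6.23. Prf1 was 6.40 and 5.98 in jak1i and 6.63 and 6.21 in jak3i, and Fasl was 4.33 and 3.82 in jak1i and 5.38 and 3.93 in jak3i. Replicate 1 was therefore the higher array for all members in both arms. In jak3i its Gzma was level with the lowest array without an inhibitor, and its other members were within the range of those arrays. In jak1i its Gzmb, Gzmc and Fasl were within that range, and its Gzma and Prf1 were below it. The range began at 8.55 for Gzmb, 6.685 for Gzmc, 6.47 for Prf1 and 4.32 for Fasl. Replicate 2 was below the range for all members in both arms. The mean of the T cell list was also higher in replicate 1, at 6.83 against 6.65 in jak1i and 7.46 against 6.79 in jak3i, and so was that of the hair shaft keratins, at 10.29 against 5.58 and 9.64 against 6.26. The part of these lists in the member levels was not tested.

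Against its own 0 weeks, jak1i at 24 weeks was lower, with log2 differences of −4.20 for Gzma (adjusted p = 0.0316 in limma), −3.38 for Gzmb (0.047), −1.03 for Prf1 (0.0436) and −2.34 for Fasl (0.0316), or 4 members against 0.154% of all genes. Gzmc stood at −0.98 (adjusted p = 0.563). These calls were all lost without jak1i at 0 weeks replicate 1 or 2 or without jak1i at 24 weeks replicate 2, and 2 were lost without jak1i at 0 weeks replicate 3. In jak3i limma called 0 members (0.0165% of all genes lower), with 2 under an unadjusted p of 0.05 (4.08% of all genes), and the differences ran from −2.35 for Gzmb to −0.06 for Fasl with adjusted p-values of 0.172 to 0.955. Without jak3i at 24 weeks replicate 1 Gzma was called, at −3.46 (adjusted p = 0.0484). Between 12 and 24 weeks no member was called in either arm. In jak3i all 24-week arrays were above all 12-week arrays for 4 members, against 16.7% of all genes, with Gzma higher by 2.81 (95% interval 1.16 to 4.46, adjusted p = 0.413) and Gzmc by 2.49 (adjusted p = 0.812). Those 4 were under an unadjusted p of 0.05 (3.31% of all genes), as was 1 member, Gzmb, in jak1i (2.6% of all genes, 1.85, 95% interval 0.15 to 3.55, unadjusted p = 0.0341, adjusted p = 1).

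The inhibitors were compared with each other at matched weeks, in 20 comparisons of 5 members at 4 times, and limma called none over all genes. At 6 weeks jak1i minus jak3i was 0.29 for Gzma (95% interval −1.19 to 1.76), 0.15 for Gzmb (−1.37 to 1.67), 0.61 for Gzmc (−1.01 to 2.22), −0.24 for Prf1 (−0.67 to 0.19) and 0.34 for Fasl (−0.44 to 1.11), all with adjusted p = 1. The intervals for the granzymes allow differences of more than 1 on the log2 scale, so likeness is not shown. At 12 weeks the values were 0.90 for Gzma (−0.57 to 2.38), −0.39 for Gzmb (−1.91 to 1.13), 1.01 for Gzmc (−0.60 to 2.63) and 0.24 for Fasl (−0.54 to 1.01), with adjusted p-values of 0.98 to 0.998. Prf1 had the smallest p there, at 0.94 (0.51 to 1.37), with all jak1i arrays above all jak3i arrays, an unadjusted p = 1.6e-04 and an adjusted p = 0.554. The share of all genes with such a separation is not given. Fasl had been higher in jak1i at 0 weeks, by 1.70 (0.93 to 2.47, unadjusted p = 1.5e-04, adjusted p = 0.971). At 24 weeks the differences ran from −1.19 for Gzma (−2.99 to 0.62) to −0.23 for Gzmb (−2.09 to 1.63), with Prf1 also at −0.23 (−0.76 to 0.30), and adjusted p = 1. Members higher in jak1i at an unadjusted p under 0.05 were 1, 0, 1 and 0 at 0, 6, 12 and 24 weeks, against 2.9%, 1.42%, 1.93% and 0.264% of all genes. The doses are not given, so equal weeks do not show equal exposure.

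Markers of the lymphocytes that carry these proteins were lower as well. Of 9 measured T cell genes, 5 were lower than PBS in jak1i at 6 weeks and 6 at 12 weeks, and 5 and 7 in jak3i, with medians of −1.23, −0.98, −1.29 and −1.27. The jak3i arm already had all 9 below PBS at 0 weeks, with a median of −0.56 and 0 called, and the mean of the list was 6.64 to 7.14 there against 7.22 to 7.74 in PBS. Relative to the change in PBS, 0 of 9 were called in jak3i by 6 weeks (median −0.21) and 1 by 12 weeks (−0.50), and 0 and 5 in jak1i (−1.30 and −1.26). Cd3d, a chain of the T cell receptor complex, was lower than PBS, with differences of −1.27 and −1.23 in jak1i and −1.29 and −1.49 in jak3i (limma adjusted p = 0.00435, 0.00116, 0.00386 and 1.5e-04). Cd8a, the co-receptor of killer T cells, was lower than PBS, at −1.43, −1.86, −1.37 and −1.80 in the same order. Of 5 measured NK cell genes 3, 5, 2 and 5 were lower. Ncr1, an activating receptor of NK cells, stood at −0.43 and −0.61 from PBS at 6 weeks (limma adjusted p = 0.433 and 0.267). At 12 weeks it was lower than PBS, at −0.91 and −1.01 (adjusted p = 0.035 and 0.0195). Of 4 pan-leukocyte genes 2, 4, 2 and 2 were lower, and Ptprc, which encodes CD45, stood at −1.07 and −0.97 in jak1i (adjusted p = 0.043 and 0.0205) and −1.01 and −0.77 in jak3i (0.0504 and 0.0497). The summed T cell list shows the groups as ranges of its mean level, at 6.94 to 7.60 in PBS at 6 and 12 weeks, 5.94 to 6.38 in jak1i and 5.91 to 6.24 in jak3i.

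Whether a member differed by more than these T cell genes was asked by subtracting the mean of the T cell list on the same array, and testing inhibitor against PBS over 6 and 12 weeks with an exact two-sided permutation test within weeks. With 400 arrangements the smallest possible p is 0.005, and p-values were adjusted over the 10 tests. The list itself differed by −1.06 in jak1i and −1.14 in jak3i. Gzma differed from the list by −3.57 in jak1i and −4.09 in jak3i, and Gzmb by −3.48 and −3.28, each with an exact p = 0.005 and an adjusted p = 0.00833. For Gzmc the value was −2.06 in jak3i (exact p = 0.005, adjusted p = 0.00833) and −1.33 in jak1i (exact p = 0.075, adjusted p = 0.107), the latter −1.82 (adjusted p = 0.0214) without jak1i at 6 weeks replicate 2. Over the weeks together Prf1 stood near the list, at 0.26 in jak1i and −0.01 in jak3i (exact p = 0.13 and 0.965). By week its values were −0.11 and 0.63 in jak1i and 0.13 and −0.15 in jak3i. Fasl was at −0.49 in jak1i (exact p = 0.09, adjusted p = 0.112) and at −0.69 in jak3i (exact p = 0.005, adjusted p = 0.00833). Its values by week were −0.12 and −0.85 in jak1i and −0.46 and −0.93 in jak3i. The jak3i arm had a gap of this kind before treatment, since at 0 weeks its Fasl was −1.15 from PBS relative to the list, with no overlap, so the difference under treatment is no larger than that of the start. For Gzma, Gzmb and Gzmc the values in jak3i at 0 weeks were −0.73, 0.28 and 1.80.

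Against the NK cell list in place of the T cell list, Gzma and Gzmb kept their calls, Prf1 was higher than the list by 0.70 in jak1i and 0.48 in jak3i (adjusted p = 0.0357 and 0.025, exact permutation test), and Fasl in jak3i was at −0.20 (adjusted p = 0.522). Against 4 pan-leukocyte genes Fasl in jak3i was at −0.96 (adjusted p = 0.075). Fold changes of different probe sets have different scales of response, so a larger difference on an array need not be a larger change in transcript.

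**Figure D3:**
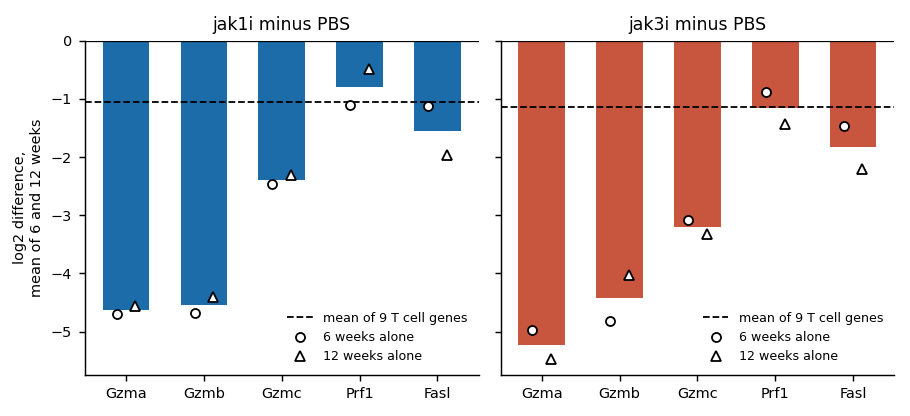
Bars show the log2 difference of each member between inhibitor and PBS as the mean over 6 and 12 weeks, for jak1i (left) and jak3i (right), with white markers for 6 weeks (circle) and 12 weeks (triangle) alone, and the dashed line is the same difference in the mean of 9 T cell genes (−1.06 and −1.14). The bars of Gzma and Gzmb end 3.28 to 4.09 below the line, and those of Prf1 end 0.26 above it in jak1i and level with it in jak3i.

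Genes of mast cells and macrophages were not called lower with the members. Mast cells, which express granzyme B in some settings, had 0 of 7 genes called in any comparison with PBS at 6 or 12 weeks, and the medians were above 0, at 1.19 and 0.84 in jak1i and 1.43 and 1.26 in jak3i. The mean of the mast cell list was 5.94 to 8.47 in PBS at 6 and 12 weeks and 7.22 to 9.56 under the inhibitors. The 4 macrophage genes and the 6 keratinocyte and dermal genes were called in none of these comparisons, and of 3 neutrophil genes 1 was lower in jak1i at 12 weeks and 0 in the others, with medians of −1.93 and −2.49 in jak1i and −2.49 and −0.31 in jak3i. Genes of helper and regulatory T cells, 4 in number, were not called either, with medians of −0.13 to −0.23. Their mean level at 12 weeks was 5.622 to 5.715 in PBS, 5.369 to 5.404 in jak1i and 5.286 to 5.361 in jak3i. At 6 weeks it was 5.533 to 5.748, 5.356 to 5.525 and 5.341 to 5.556. Foxp3 was dim on all arrays, at 3.83 to 4.53, and the lack of a call does not show equal levels. Hair shaft keratins had medians of −1.79 to −4.85, with 3 of 6 measured genes called lower in jak3i at 12 weeks and 0 in the others. Fat cell genes were higher than PBS in 3 of 3 measured in jak3i at 6 weeks, and all 6 skeletal muscle genes were higher than PBS in both arms at 12 weeks, the time at which PBS itself was low. What part these lists have in the member differences was not tested.

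The remaining genes of the killing pathway were taken by role. Of 12 other granule proteins 2 were lower than PBS in jak1i at 6 weeks and 6 at 12 weeks, and 2 and 4 in jak3i, with medians of −0.14, −0.37, −0.14 and −0.38. Nkg7, a protein of the granule membrane, was lower than PBS in all 4 comparisons, at −2.26 and −1.73 in jak1i (limma adjusted p = 0.00333 and 0.00296) and −2.07 and −2.76 in jak3i (0.00386 and 4.7e-05). Ctsw, a cathepsin of killer cells, stood at −1.44 and −1.22 in jak1i and −1.45 and −1.99 in jak3i, called in each (adjusted p = 0.0227, 0.0145, 0.0167 and 4.6e-04). Gzmk, a tryptase encoded on chromosome 13 like Gzma, stood at −0.19 from PBS in both arms at 6 weeks. At 12 weeks it was lower than PBS, at −0.76 in jak1i and −0.91 in jak3i (limma adjusted p = 0.0376 and 0.0151).

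Of the granzymes on chromosome 14, whose order in RefSeq's GRCm38.p6 is Gzme, Gzmd, Gzmg, Gzmn, Gzmf, Gzmc and Gzmb, only the neighbours Gzmc and Gzmb moved over a wide range. Gzmc spanned 4.78 and Gzmb 6.05 on the log2 scale over the 31 arrays. The 7 granzyme genes that are not members spanned 0.553 to 1.72, Gzmk and Gzmm included. Gzmf, the neighbour of Gzmc, ranged from 3.83 to 4.70 and was called lower at 12 weeks, at −0.43 in jak1i and −0.42 in jak3i (adjusted p = 0.0318 and 0.0304). Gzmd, Gzme, Gzmg and Gzmn kept to levels between 2.79 and 3.85, at the dim end of the arrays, and were not called in these comparisons. Granzymes of this cluster are alike in sequence, and whether their probe sets share signal was not tested.

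Genes that release granules were mostly not called, with 0 and 1 of 8 lower in jak1i and 1 and 2 in jak3i at 6 and 12 weeks. Stx11, a syntaxin needed for granule fusion, stood at −0.90 from PBS at 6 weeks in jak1i (limma adjusted p = 0.0774) and was lower than PBS by 1.13 at 12 weeks (0.0072). In jak3i it was lower than PBS by 1.11 (0.0246) and 1.03 (0.0107). Of 5 inhibitors of granule proteases 0 and 2 were lower in jak1i and 1 and 2 in jak3i. Cst7, the cystatin that restrains cathepsins in granules, was at −0.69 from PBS at 6 weeks in jak1i (limma adjusted p = 0.103) and lower than PBS by 1.08 at 12 weeks (0.00343). In jak3i it was lower than PBS by 0.80 (0.0497) and 0.94 (0.00684).

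On the side of the death receptors 9 genes were analysed. Of these 0 and 5 were lower in jak1i and 1 and 2 in jak3i. Fas, the receptor of Fas ligand, was not called, at 0.12 and 0.18 in jak1i and 0.12 and 0.20 in jak3i (limma adjusted p-values of 0.481 to 0.797). Tnfsf10, the death ligand TRAIL, stood at −1.32 from PBS at 6 weeks in jak1i (limma adjusted p = 0.0883) and was lower than PBS by 1.32 at 12 weeks (0.0255). In jak3i it was lower than PBS by 1.92 at 6 weeks (0.00968) and stood at −0.76 at 12 weeks (0.168). Casp8, the caspase that Fas recruits, was at −0.40 and −0.48 from PBS at 6 weeks (limma adjusted p = 0.235 and 0.149). At 12 weeks it was lower than PBS, at −0.81 and −0.58 (0.00592 and 0.0264). The cytokine gene Tnf stood at −0.35 and −0.11 from PBS at 6 weeks (limma adjusted p = 0.177 and 0.729). At 12 weeks it was lower than PBS, at −0.50 and −0.43 (0.016 and 0.0281).

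Of 8 transcription factors of killer lymphocytes 2 and 3 were lower in jak1i and 2 and 4 in jak3i. Tbx21, which encodes T-bet, was lower than PBS, with differences of −1.39 and −1.47 in jak1i (limma adjusted p = 0.0334 and 0.00652) and −1.71 and −1.54 in jak3i (0.00673 and 0.00501). Runx3, a factor of the family whose core was searched in the promoters, was lower than PBS, at −1.37 and −0.83 in jak1i (0.00925 and 0.0305) and −1.25 and −0.93 in jak3i (0.00968 and 0.0156). Stat4, which relays interleukin 12, was at −0.31 and −0.41 from PBS at 6 weeks (limma adjusted p = 0.465 and 0.341). At 12 weeks it was lower than PBS, at −0.84 and −0.90 (0.0152 and 0.0102). No gene of these pathway lists was called higher in these 4 comparisons. In jak3i from 12 to 24 weeks, where 6 of all genes were called higher, 2 were Nkg7 (2.49, adjusted p = 0.00622) and Ctsw (2.11, adjusted p = 0.0175). The 24-week group has only 2 arrays, which disagreed for the members, and these calls were not repeated with an array left out.

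Members were then compared with each other, apart within the 15 arrays without an inhibitor and the 16 after an inhibitor, since treatment splits the arrays. This gave 20 pairs with permutation p-values adjusted over them. Without an inhibitor Fasl went with Gzma (r = 0.821, rho = 0.839, permutation p = 3.6e-04, adjusted p = 0.00253) and with Prf1 (r = 0.783, rho = 0.829, permutation p = 8.8e-04, adjusted p = 0.00352). Gzmb went with Prf1 (r = 0.767, rho = 0.654, permutation p = 6.9e-04, adjusted p = 0.00345). Without the 2 arrays farthest from the median, these r were 0.785, 0.669 and 0.634. The 15 arrays pool groups of different means, and the permutations were not kept within groups. Over these arrays Gzmc did not go with the others. Its r was −0.597 with Fasl (rho = −0.600, permutation p = 0.0188, adjusted p = 0.0291), −0.497 with Gzma (rho = −0.464, adjusted p = 0.0723) and 0.082 with Gzmb (rho = 0.236, adjusted p = 0.778).

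The negative relation of Gzmc and Fasl was −0.379 without the 2 farthest arrays, and with each array taken relative to its own group r was −0.006 over all 31 arrays. Taken in that way, the r of Gzmc was 0.442 with Gzma, 0.493 with Gzmb and 0.105 with Prf1. The jak3i arm at 0 weeks has high Gzmc and low Fasl, and without it r was −0.585 over 12 arrays (permutation p = 0.0459). This subset, and that of the arrays of 6 and 12 weeks used next, were chosen after seeing the data. After an inhibitor Gzma and Gzmc went together (r = 0.879, rho = 0.862, permutation p = 2.0e-05, adjusted p = 4.0e-04), and this held at r = 0.771 without the 2 farthest arrays and at 0.791 over the 12 arrays of 6 and 12 weeks (permutation p = 0.00127). Gzma and Gzmb, with r = 0.890 over the 16 (rho = 0.585, adjusted p = 0.00253), had r = 0.586 over those 12 (permutation p = 0.0907). For Gzma with Fasl the values were 0.814 (rho = 0.574, adjusted p = 0.00433) and 0.191, so that relation rests on the 24-week arrays.

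**Figure D4:**
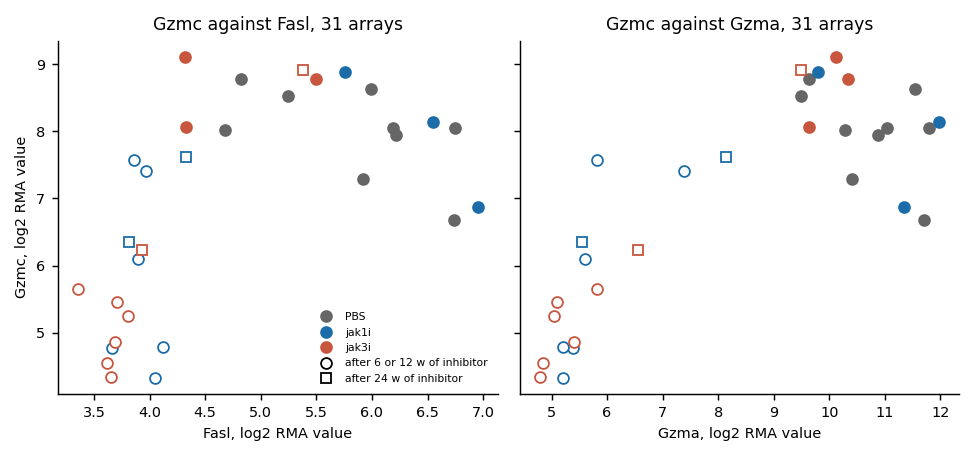
The log2 level of Gzmc is plotted against that of Fasl (left) and Gzma (right), with 1 point per array, colours for the arms, filled points for arrays without an inhibitor and open ones after an inhibitor. Among the arrays without an inhibitor, Gzmc does not go up with Gzma or Fasl (r = −0.497 and −0.597), and after an inhibitor it goes with Gzma (r = 0.879).

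The genes outside the members that were most like each member over the 31 arrays were found by Pearson's r, as a description in which the shared treatment sets much of the likeness. Gzma was most like the chemokine gene Ccl5 (r = 0.974), the NK receptor gene Klrc1 (0.962), AA467197 (0.958), Cd8b1, the other chain of the killer T cell co-receptor (0.954), and the chemokine gene Cxcl11 (0.944). Gzmb was most like Cxcl11 (0.967), Xaf1 (0.966), Ccl5 (0.962), Parp9 (0.958) and Ifih1, a sensor of viral RNA (0.958). Gzmc was most like the chemokine genes Cxcl10 (0.929), Xcl1 (0.928) and Cxcl9 (0.921), followed by Gbp2b (0.911) and Dtx3l (0.909). Among the 15 arrays without an inhibitor the r with Gzmc was 0.835 for Xcl1 and 0.307 for Cxcl9. The members themselves were left out of these orders, although Gzma and Gzmb had r = 0.964 with each other and Gzma and Prf1 0.897. Prf1 was most like Nkg7 (0.926), the NK receptor gene Klrd1 (0.902), Cd3d (0.889), Cd8b1 (0.882) and Ccl5 (0.881). Fasl was most like Cd8a (0.952), Cd8b1 (0.945), Dact2 (0.934), Ankrd66 (0.933) and Smyd3 (0.925). No gene outside the members stood in the first 5 of all members, and Ccl5 and Cd8b1 each stood in the first 5 of 3 of them.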

How the data were processed

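Total RNA from skin was measured in 31 samples on 3' expression arrays, 1 per sample. The deposited log2 values were made by the authors with RMA, a background correction, quantile normalisation and probe set summary named in the submitters' processing notes without a version, and their range of 2.59 to 14.69 was checked. Weeks were read from the W of the sample titles. Of 45101 probe sets, 34958 had 1 gene symbol, 932 several and 9211 none. The 64 array controls were left out.

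Group means of 11 groups were fitted with limma 3.58.1 in R 4.3.3 to all 31 arrays (20 residual and 2.50 prior degrees of freedom), with Benjamini-Hochberg adjustment over 18193 genes in each comparison and a threshold of 0.05. Permutation tests ran in Python 3.11.15, with 100000 resamples for correlations. Both kinds of test were tested on simulated data. The members, gene lists and tests were chosen with earlier results of these data known. Genes of the lists are named where called in at least 2 of the 4 comparisons with PBS at 6 and 12 weeks, at most 4 a list, and Cd3d, Cd8a, Ncr1 and Ptprc as checks. The number of arrays limits the precision, and scan batches were not tested.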

Additional observations from a re-analysis of the deposited data

Results flagged for a closer look

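The change from 0 to 12 weeks differed between an inhibitor arm and PBS in the test of that difference itself (limma, adjusted p under 0.05) for 7 pairs of gene and arm. In jak1i the log2 difference of the changes was −4.14 for Gzma, −4.80 for Gzmb and −1.81 for Fasl. In jak3i it was −4.03 for Gzma, −3.59 for Gzmb, −4.42 for Gzmc and −1.12 for Prf1. Of all genes, 3.86% in jak1i and 1.96% in jak3i were called lower in the same test. With 1 array left out, 1 to 3 members were called in jak1i and 0 to 4 in jak3i. Groups of 2 or 3 arrays are too small to test for a single outlying array.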

How the results depend on the processing

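Of single members' differences in limma under the other settings, 30 lost the call, 11 gained it and 779 stayed on their side of the threshold. None changed sign with a call in either fit, and sign changes without a call were not counted. Of 5 members, jak3i against PBS at 6 weeks had 5 lower, but 3 with the mean of all probe sets, 3 with the replicate number as a block and 2 in a fit to the compared arrays. For jak1i at 24 weeks against its own start, 4 became 2 with centred arrays, 2 with the mean of probe sets, 2 with the block and 0 in the compared arrays. For the change from 0 to 6 weeks against that of PBS, 0 became 1 without dim genes, 1 with the mean of probe sets and 2 in the compared arrays for jak1i, and 3 in the compared arrays for jak3i. Relative to the NK cell list, Prf1 in jak3i turned to 0.48, Prf1 in jak1i was 0.70 and Fasl in jak3i −0.20, and relative to pan-leukocyte genes the last was −0.96. The cause was not tested. Same-number arrays of different groups had a median r of −0.024 over 146 pairs, and other arrays had 0.001 over 290 pairs. These pairs pool all arms, and whether the numbers pair the arrays within an arm was not tested. The other 153 counts under these settings stayed within 1.5 times, which includes counts of 0 that stayed 0.

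Leaving out 1 array gave 2 to 4 members lower than PBS in jak1i at 6 weeks and 3 to 4 at 12 weeks, and 2 to 4 and 4 to 5 in jak3i. Against own starts at 6, 12 and 24 weeks the ranges were 4 to 5, 3 to 4 and 0 to 4 in jak1i, and 2 to 4, 0 to 5 and 0 to 1 in jak3i. For the changes against PBS they were 0 to 3 and 1 to 3 in jak1i and 0 to 0 and 0 to 4 in jak3i, and 0 to 0 in all other comparisons. Relative to T cell genes, Gzma ranged from −3.86 to −3.37, Gzmb from −3.72 to −3.27, Gzmc from −1.82 to −0.98, Prf1 from 0.19 to 0.32 and Fasl from −0.58 to −0.31 in jak1i, and Gzma from −4.33 to −3.93, Gzmb from −3.57 to −3.07, Gzmc from −2.27 to −1.88, Prf1 from −0.08 to 0.06 and Fasl from −0.78 to −0.52 in jak3i. Centring moved an array by at most 0.139. Groups of 2 or 3 arrays limit what could be called, and dim levels limit the folds.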
